A study of Homo sapiens with 24 samples.

Results

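The MYC, MAX and MXD network comprised 10 genes here, MYC, MYCN, MYCL, MAX, MXD1, MXD3, MXD4, MXI1, MNT and MGA, which were taken by symbol from a gene count table of 33113 genes. All 10 had a row in the table, and all 10 were among the 19452 genes with a count in any sample that were tested. Of the 10, 9 had at least 10 counts on average, while MYCN, which passed only because any count in any sample sufficed, had 0 to 4 counts per sample. RNA was sequenced from HCT116 cells, an established line of human colorectal adenocarcinoma, and from HCT116 oxpl-R cells, a subline that the authors selected from it by repeated pulses of oxaliplatin, a platinum drug that forms DNA adducts. Both lines carried TetOn-E1A, a transgene for the adenoviral E1A protein that doxycycline switches on, and the untreated cells carried it too. The 24 samples were spread evenly over the 2 lines and 4 conditions, so that each of the 8 groups held 3. The conditions were untreated cells (control), cells given doxycycline at 0.5 µg/mL (E1A), cells treated with 25 µM oxaliplatin for 24 h (oxaliplatin), and cells given doxycycline 3 h ahead of the same oxaliplatin treatment (E1A + oxaliplatin). The study describes the HCT116 oxpl-R cells as chromosomally rearranged, so line differences in RNA and in gene copies cannot be told apart. No group received doxycycline without the transgene, so effects of doxycycline and of E1A cannot be told apart, and the table holds 0 rows for E1A, so its induction was not checked here.

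MYC, MYCN and MYCL are transcription factors that bind DNA as heterodimers with MAX, mostly at the E-box CACGTG, and raise the transcription of genes for ribosome production, nucleotide synthesis and cell growth. MXD1, MXD3, MXD4, MXI1 and MNT compete for MAX, bind the same element and recruit the SIN3 corepressor with histone deacetylases, and MGA joins MAX within a variant Polycomb complex. In the intestine, MYC is a target of Wnt signalling and its level is high in most colorectal tumours, whereas several MXD proteins, such as MXD1 and MXD4, are known to accumulate as cells leave the cycle.

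Totals of the count table ranged from 24838095 to 37927720 per sample. Within groups, Pearson coefficients of log2(CPM + 1) were at least 0.9638. Of 8 markers of colon epithelium, 5 had more than 3 counts in all samples, with EPCAM, CDH1, CDX2, KRT8 and KRT18 among the clearly expressed genes, and CDX1 reached at most 6 counts. CDX2 differed between the untreated lines (log2FC 1.41 ± 0.18, higher in HCT116 oxpl-R cells). Of the 8, 1 passed there as higher and 1 as lower (7.19% and 6.93% of all genes tested). KRT20 averaged 35.42 normalized counts in untreated HCT116 and 6.75 in untreated HCT116 oxpl-R cells. Summed over the 8 markers, normalized counts ranged from 149700 to 171900 in untreated HCT116 and from 179100 to 189900 in untreated HCT116 oxpl-R cells, and after oxaliplatin from 257900 to 296500 and from 258800 to 356500. KRT8 alone averaged 109700 and 128900 in the untreated lines and 205800 and 218700 after oxaliplatin. EPCAM went the other way, with 10080 and 8390 untreated and 9620 and 7028 after oxaliplatin. Of 9 markers of fibroblasts, blood and endothelium, DCN and LUM had at most 3 counts in every sample and PTPRC at most 14, while COL1A1 lay between 339 and 1512 and COL1A2 between 0 and 489. Their summed normalized counts ranged from 597.7 to 658.6 in untreated HCT116 and from 501.0 to 909.1 in untreated HCT116 oxpl-R cells. In cultures, fewer cells and less RNA per cell cannot be told apart. The samples are labelled as biological replicates without further detail, so p-values measure the spread between these samples.

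In untreated HCT116 cells, MYC was the most abundant member per transcript length, at 148.9 ± 8.11 CPM per kilobase of its canonical transcript (CPM per kb; mean ± SD, n = 3, as for all levels below). MAX, the shared partner, stood at 35.86 ± 3.48 CPM per kb and MXD3 at 29.6 ± 2.75. MXI1 (14.26 ± 1.91) and MXD4 (12.73 ± 0.503) followed, and MYCL, MNT, MGA and MXD1 lay between 0.870 and 5.084 CPM per kb. In untreated HCT116 oxpl-R cells the order began the same way, with MYC at 99.97 ± 7.45 CPM per kb, but MXD3 (41.29 ± 6.85) stood ahead of MAX (30.1 ± 1.09), and MXD1 (3.1 ± 1.15) ahead of MYCL (2.337 ± 0.186), orders that were not tested. MYCN, the paralog of neural and embryonic tissues, had 0 counts in 21 of the 24 samples and 4, 2 and 1 counts in 3 HCT116 oxpl-R samples. A count of 0 allows up to 3 counts, a limit that covers counting error only, and no fold change is given for it.

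The levels of MYC spanned a wide range over the 8 groups. Untreated HCT116 cells were highest, at 15778, 15482 and 17129 normalized counts, and stood above every other sample. HCT116 cells with oxaliplatin (13174 ± 884) and with E1A (12542 ± 812) came next, and their samples overlapped each other. Untreated HCT116 oxpl-R cells held 10652, 11707 and 10124 counts, and overlapped the neighbouring groups in the order, E1A above and E1A + oxaliplatin (HCT116, 10450 ± 2289) below. HCT116 oxpl-R cells with oxaliplatin followed at 9527 ± 1531. The 6 HCT116 oxpl-R samples given doxycycline were lowest and apart from the rest, at 7512, 6580 and 5024 counts with E1A alone and 6624, 6816 and 4755 counts with E1A + oxaliplatin. The plot of members by sample shows this order.

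**Figure D1:**
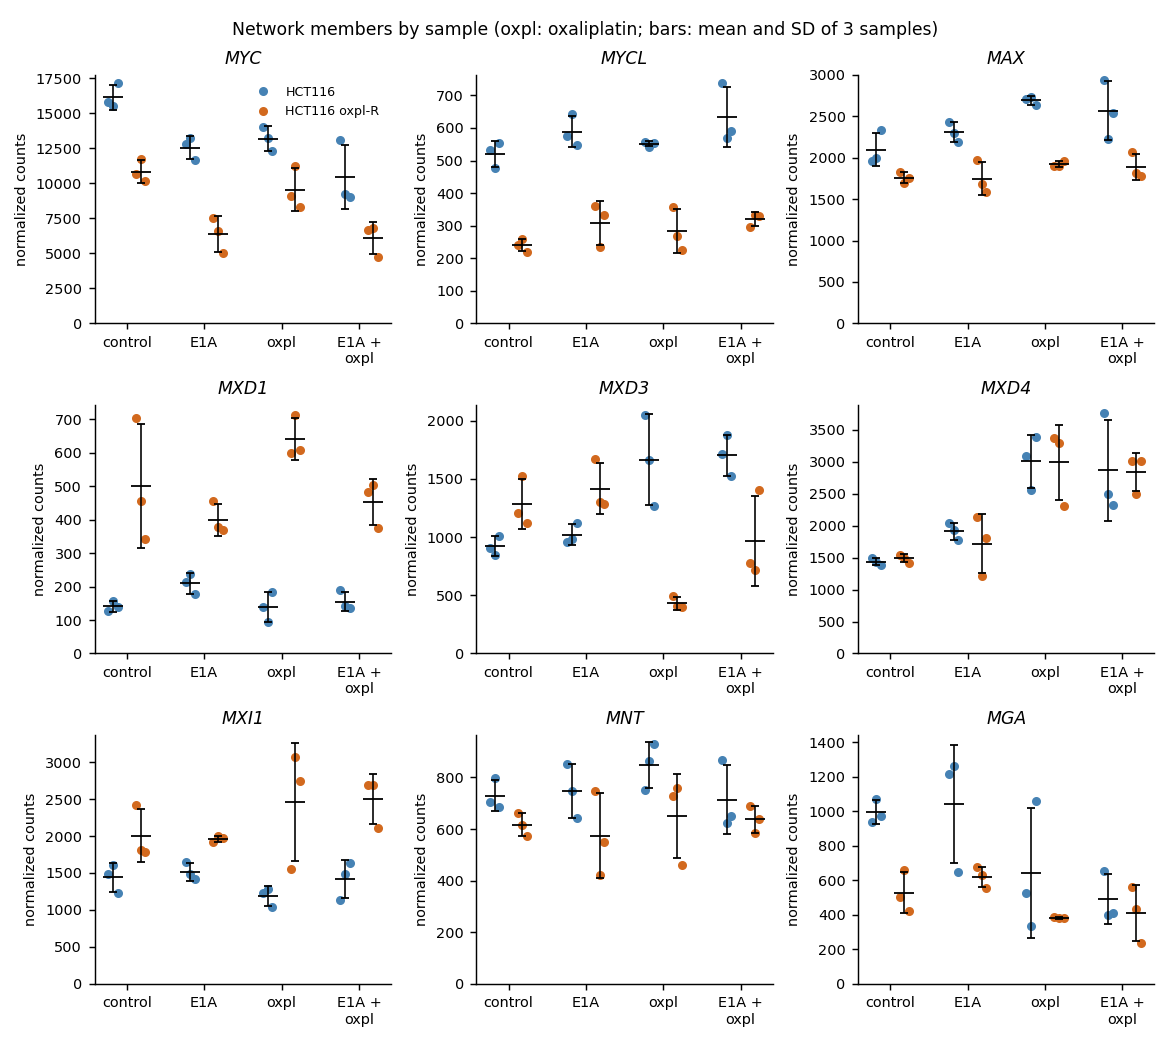
Normalized counts (y axes, from 0) of 9 network members in 4 conditions (x axes) for HCT116 (blue) and HCT116 oxpl-R cells (orange); each point is 1 sample and the bars give the mean and SD of 3 samples. MYC is lower and MXD1 higher in the HCT116 oxpl-R cells of every condition on average, MXD4 rises with oxaliplatin in both lines, and MXD3 rises in HCT116 and falls in HCT116 oxpl-R cells.

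The first comparison asked how the resistant subline differed from its parent without treatment. MYC, MYCL and MGA were lower in the resistant subline and MXD1 was higher, by edgeR's quasi-likelihood test with Benjamini-Hochberg adjustment over all genes tested. That is 4 of 10 members called at an adjusted p below 0.05, against 14.1% of all genes tested. MYC was 1.49-fold lower (log2FC −0.57 ± 0.19 SE, adjusted p = 0.0333), and no HCT116 oxpl-R sample reached the HCT116 samples. The call for MYC was close to the threshold. With any 1 of the 6 samples left out, log2FC lay between −0.63 and −0.53 and the adjusted p between 0.0548 and 0.121. With RLE normalization the adjusted p was 0.0595, and with the trend over transcript length removed, an alternative added after seeing the data, log2FC was −0.46 (adjusted p = 0.106).

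MYCL, the paralog often amplified in small cell lung cancer, showed a larger and steadier difference. It was measured at 531, 476 and 553 normalized counts in untreated HCT116 and at 241, 258 and 220.1 in untreated HCT116 oxpl-R cells, 2.17-fold lower (log2FC −1.12 ± 0.21, adjusted p = 0.000255). MYCL separated the lines in every condition. The lowest of the 12 HCT116 samples held 476 counts and the highest of the 12 HCT116 oxpl-R samples 359. The difference was −0.93 with E1A (adjusted p = 0.00192), −0.96 with oxaliplatin (0.000589) and −0.98 with both (0.000744) on the log2 scale, and all these calls held in every alternative run. Genes within 5 Mb of MYCL on chromosome 1 had a median log2FC of −0.02 between the untreated lines.

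MXD1, a repressor known to be induced during differentiation, moved the other way. It was measured at 126, 157 and 139 normalized counts in untreated HCT116 cells and at 704, 455 and 343 in untreated HCT116 oxpl-R cells, 3.56-fold higher (log2FC 1.83 ± 0.26, adjusted p = 4.72e-06). The 3 HCT116 oxpl-R values differed from each other by more than those of any other MXD1 group, yet each exceeded all HCT116 values. With oxaliplatin, MXD1 held 139, 94.0 and 185 counts in HCT116 and 600.2, 712 and 609 in HCT116 oxpl-R cells, the largest of the 4 line differences of MXD1 (log2FC 2.20 ± 0.26, adjusted p = 1.14e-07). With E1A it was 0.93 ± 0.25 (adjusted p = 0.0107, and 0.0587 without HCT116 E1A replicate 3), and with E1A + oxaliplatin 1.55 ± 0.26 (adjusted p = 4.21e-05). MXD1 lies on chromosome 2, where expressed genes had a median log2FC of −0.29 between the untreated lines, as had those within 5 Mb of it.

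MGA is the largest protein of the network and binds DNA through both a T-box and a bHLHZip domain. It was measured at 939, 1072 and 970.3 normalized counts in untreated HCT116 and at 502, 656 and 422 in untreated HCT116 oxpl-R cells (log2FC −0.92 ± 0.32, adjusted p = 0.0488). No sample overlapped, but the call rested on a narrow margin. It was lost with RLE normalization (0.057), with genes kept by filterByExpr (0.0682) and on the second deposited table (0.191 to 0.201), and without any 1 sample other than HCT116 oxpl-R replicate 2 (0.0821 to 0.165).

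The level of MGA moved with that of long transcripts as a class in HCT116 cells. Its canonical transcript has 12193 bases, and transcripts over 8000 bases as a class deviated from their means over the 24 samples by −0.455 to 0.32 on the log2 scale of CPM + 1 (median of 848 genes per sample). The 3 untreated HCT116 samples lay at 0.207 to 0.285 and the untreated HCT116 oxpl-R samples at −0.011 to 0.085. Within HCT116 cells treated with oxaliplatin, replicates 1 and 2 lay at −0.455 and −0.396 and replicate 3 at 0.235, and MGA held 526, 335 and 1059.9 counts in these samples. HCT116 cells with E1A lay at 0.116 to 0.32, and those with E1A + oxaliplatin at −0.024, −0.29 and −0.196, with MGA at 655, 400.0 and 410 counts. HCT116 oxpl-R cells with oxaliplatin lay at −0.055, −0.067 and −0.009, and yet held 387, 378 and 379 counts of MGA. In HCT116 oxpl-R cells with E1A + oxaliplatin, replicate 3 lay at −0.312 and had the lowest MGA of all samples, 238 counts. Whether the shift over long transcripts came from the libraries or from the treatment was not tested. With the trend over length removed, an alternative added after seeing the data, the log2FC of MGA between the untreated lines was −0.71 and still passed. In the same fit it was −0.55 with E1A (adjusted p = 0.139), and with oxaliplatin it was −0.84 and passed (adjusted p = 0.00901). The response of MGA to oxaliplatin in HCT116 cells went from −0.63 to −0.26 on the log2 scale there, and passed in neither fit.

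**Figure D2:**
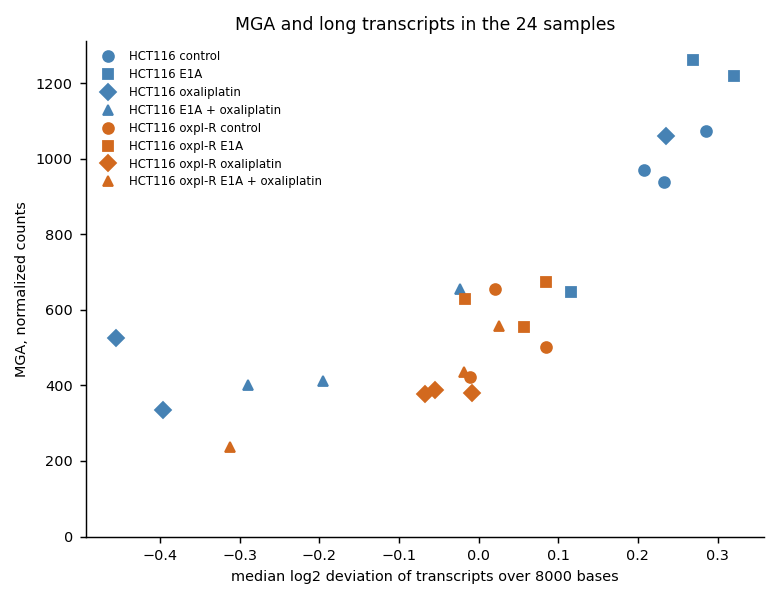
MGA in normalized counts (y axis, from 0) against the median log2 deviation of transcripts over 8000 bases (x axis) in the 24 samples, with colour for the line and symbol for the condition. The 3 untreated HCT116 samples, 2 HCT116 E1A samples and HCT116 oxaliplatin replicate 3 sit at the upper right, with deviations of 0.207 or more and 939 counts or more.

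The other members did not pass in untreated cells. MXD3 and MXI1 passed with these 6 samples fitted alone (adjusted p = 0.0202 and 0.0284). MAX (log2FC −0.25 ± 0.15, adjusted p = 0.326), MXD3 (0.48 ± 0.22, 0.161), MXI1 (0.48 ± 0.20, 0.129) and MNT (−0.24 ± 0.22, 0.564) were measured without overlap between the 3 samples of each line. That held for 3 members in the higher and 5 in the lower direction, against 17.5% of all genes tested in each. MXD4 overlapped, at 1493, 1430.2 and 1380 against 1545, 1496 and 1422 counts (log2FC 0.05 ± 0.20). The median log2FC of the 9 measured members was −0.24, and that of the 11097 genes with at least 10 counts on average was −0.03.

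With E1A, 3 of 10 members differed between the lines (14.4% of all genes tested). MGA passed there without HCT116 E1A replicate 3 (log2FC −1.001, adjusted p = 0.0413), and MAX in DESeq2 (0.0336). MYC was 1.97-fold lower in HCT116 oxpl-R cells (log2FC −0.98 ± 0.19, adjusted p = 0.000395), MYCL was lower and MXD1 higher, as given above. With E1A + oxaliplatin, 6 of 10 members differed (19.3% of all genes). MYC was 1.72-fold lower there (log2FC −0.79 ± 0.19, adjusted p = 0.00247), and both MYC calls held in every alternative. With oxaliplatin alone, 5 of 10 members differed (25.6% of all genes), and MYC did not pass (log2FC −0.47 ± 0.19, adjusted p = 0.0626) although its samples did not overlap. Same-numbered samples deviated together in this comparison, and with the replicate number as a block MYC passed (log2FC −0.47, adjusted p = 0.0304). MYC passed in 10 of 15 alternatives in all, among them DESeq2 (0.0191), RLE normalization (0.0457), filterByExpr (0.0284), limma on the second table (0.0316 to 0.0326), the fit with the length trend removed (0.0321) and those without HCT116 oxaliplatin replicate 3 (0.0282) or HCT116 oxpl-R oxaliplatin replicate 2 (0.0184). MGA had log2FC −0.75 ± 0.32 with oxaliplatin (adjusted p = 0.0853) and passed with the trend over transcript length removed, as given above, and without HCT116 replicate 2 (−1.09, adjusted p = 0.00871). MXD3 with E1A + oxaliplatin had log2FC −0.82 ± 0.22 (adjusted p = 0.00717, but 0.0558 without HCT116 oxpl-R replicate 1 and 0.0743 without replicate 2).

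MAX, MXD3 and MXI1 passed in comparisons of the lines after treatment with oxaliplatin. MAX held 2714, 2734 and 2635 counts in HCT116 and 1900.3, 1897 and 1961 in HCT116 oxpl-R cells with oxaliplatin (log2FC −0.49 ± 0.15, adjusted p = 0.0154, but 0.0589 with these groups fitted alone), without overlap. With E1A + oxaliplatin the difference in MAX was −0.44 ± 0.15 (adjusted p = 0.0374, but 0.173 without HCT116 replicate 1, 0.141 without HCT116 oxpl-R replicate 2 and 0.139 with these groups fitted alone). MAX lies on chromosome 14 at 65006174 to 65102695, and the 36 expressed genes within 5 Mb of it had median log2FC values of −0.59 in untreated, −0.43 in E1A, −0.48 in oxaliplatin and −0.43 in E1A + oxaliplatin cells, beside −0.10 for the chromosome in untreated cells. The part of that neighbourhood in the difference of MAX was not tested.

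MXI1, a repressor related to MXD1, was measured with oxaliplatin at 1229, 1290 and 1032 counts in HCT116 and at 1556, 3071 and 2753 in HCT116 oxpl-R cells (log2FC 1.06 ± 0.21, adjusted p = 0.000184). The HCT116 oxpl-R values were widely spread, yet the lowest exceeded all HCT116 values. With E1A + oxaliplatin the difference was 0.81 ± 0.20 (adjusted p = 0.00408). MXI1 lies on chromosome 10 at 110207605 to 110287365, on the long arm, of which the study describes a deletion in the subline. The 18 expressed genes within 5 Mb had a median log2FC of −0.24 in untreated cells, where MXI1 was at 0.48, and of 0.23 with oxaliplatin.

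**Figure D3:**
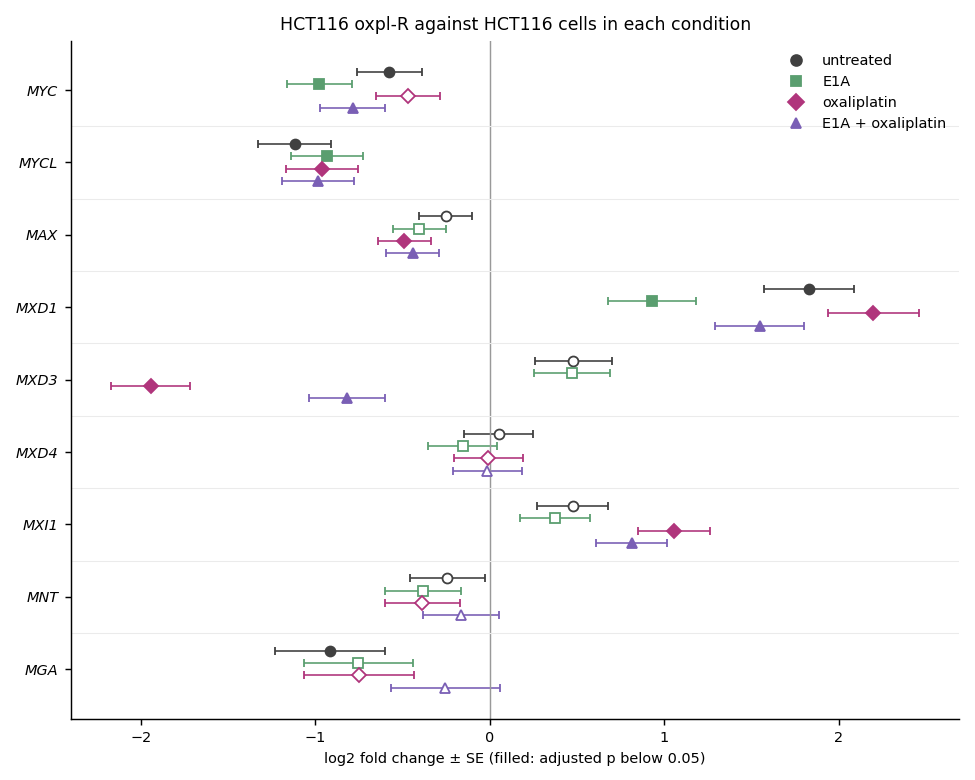
Log2 fold change of HCT116 oxpl-R against HCT116 cells (x axis, ± SE) for 9 members (y axis) in 4 conditions, by symbol and colour; filled symbols passed an adjusted p below 0.05. MYC and MYCL lie below 0 and MXD1 above 0 in all 4 conditions, MXD4 stays near 0, and MXD3 lies at 0.48 in untreated and −1.94 in oxaliplatin-treated cells.

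The next comparisons asked how each line responded to oxaliplatin. MXD3 and MXD4 were the members that changed. In HCT116 cells both rose, 2 of 10 members against 17.4% of all genes tested. In HCT116 oxpl-R cells MXD4 rose and MXD3 fell, 2 of 10 members against 6.11% of all genes. MXD4 is known for its expression in resting and differentiated cells, and MXD3 for expression in cycling cells and neural progenitors. Since the results turned on these genes, the 250 bases ahead of their RefSeq starts on GRCh38.p14 are given 5′ to 3′ on the strand of the gene, with the E-box CACGTG in capitals where it occurred. MXD3 spans chr5:177312753-177313002 and MXD4 spans chr4:2262110-2262359, both on the minus strand.
MXD3: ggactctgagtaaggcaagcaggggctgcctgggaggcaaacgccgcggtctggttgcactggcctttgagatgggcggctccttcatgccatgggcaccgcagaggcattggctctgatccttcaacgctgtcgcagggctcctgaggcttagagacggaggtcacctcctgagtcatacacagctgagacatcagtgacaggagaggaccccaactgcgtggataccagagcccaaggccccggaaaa
MXD4: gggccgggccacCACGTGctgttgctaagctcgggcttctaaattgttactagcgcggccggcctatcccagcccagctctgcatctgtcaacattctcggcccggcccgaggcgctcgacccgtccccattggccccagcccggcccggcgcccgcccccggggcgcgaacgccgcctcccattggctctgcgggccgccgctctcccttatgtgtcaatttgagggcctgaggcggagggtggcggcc

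The E-box of MXD4 began 238 bases ahead of its start. Of the 9 members with a RefSeq promoter (14 windows; MYC had no entry), MXD4 and MNT held CACGTG, a sequence that reads the same on both strands and was present in 6.34% of 35116 promoter windows of the same length. CCAAT, searched on both strands, occurred 121 and 68 bases ahead of the start of MXD4 and 142 bases ahead of that of MXD3, and in 11240 of the 35116 windows. TTTGAA and TTTCCCGC, on both strands, occurred in 13.3% and 1.39% of all windows and in neither of these promoters. These matches describe the letters alone.

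MXD4 was measured at 1493, 1430.2 and 1380 normalized counts in untreated HCT116 cells and at 3082, 2559 and 3382 after oxaliplatin. It rose in both lines, with log2FC 1.07 ± 0.20 in HCT116 (2.10-fold, adjusted p = 0.000403) and 1.01 ± 0.20 in HCT116 oxpl-R cells (2.01-fold, adjusted p = 0.00103). In the latter it went from 1545, 1496 and 1422 counts to 3371, 3285 and 2311, and no treated sample overlapped an untreated one. The test of the difference between the responses gave −0.06 ± 0.28 on the log2 scale. Both rises held in every alternative. Samples with E1A + oxaliplatin held 2327 to 3764 counts in HCT116 and 2490 to 3010.0 in HCT116 oxpl-R cells, so the 12 samples with oxaliplatin all stood above the 12 without it.

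MXD3 responded in opposite directions. In HCT116 cells it went from 903, 843 and 1012 normalized counts to 2051, 1662 and 1270.4 with oxaliplatin, a 1.81-fold rise (log2FC 0.85 ± 0.22, adjusted p = 0.00689). In HCT116 oxpl-R cells it went from 1206, 1523 and 1118 counts to 497, 404 and 396, a 2.97-fold fall (log2FC −1.57 ± 0.22, adjusted p = 1.03e-05). Every treated HCT116 sample was above, and every treated HCT116 oxpl-R sample below, all untreated samples of its line. The canonical transcript of MXD3 has 1067 bases, and transcripts under 1200 bases shifted as a class too. Their median log2 deviations by replicate were −0.159, −0.242 and −0.136 in untreated and 0.176, 0.159 and −0.286 in treated HCT116 samples. In HCT116 oxpl-R cells they were 0.003, 0.104 and 0.014, then 0.007, 0.063 and −0.013. Both MXD3 responses held in all 15 alternatives, that with the length trend removed included. The part of this shift in them was not tested. The responses differed by −2.42 ± 0.31 on the log2 scale (adjusted p = 1.47e-05), the 1 of 10 members that differed, against 2.78% of all genes tested. Of those 540 genes, 31.1% had the higher response in HCT116 oxpl-R cells, and 20.8% of 625 with RLE normalization. The difference for MXD3 held in all 21 alternatives, between −2.62 and −2.25. After oxaliplatin MXD3 was 3.84-fold lower in HCT116 oxpl-R than in HCT116 cells (log2FC −1.94 ± 0.23, adjusted p = 8.11e-08).

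MXD3 lies on chromosome 5 at 177301461 to 177312757 and overlaps RAB24 on the same strand and PRELID1 on the other, and the strand setting of the counting is not given in the sources used here. RAB24, a GTPase of the autophagy pathway, had log2FC −0.13 ± 0.23 with oxaliplatin in HCT116 and −0.15 ± 0.23 in HCT116 oxpl-R cells. PRELID1, a mitochondrial lipid transfer protein, had 0.33 ± 0.17 and −0.47 ± 0.18, with a difference between the responses of −0.80 ± 0.25 (adjusted p = 0.0762). Neither passed in either response. Between the lines after oxaliplatin, where MXD3 was lower in HCT116 oxpl-R cells, PRELID1 was lower too (−1.02 ± 0.18, adjusted p = 4.42e-05) and RAB24 had −0.39 ± 0.23 (adjusted p = 0.243). With E1A + oxaliplatin both were lower, PRELID1 at −0.61 ± 0.18 (adjusted p = 0.0116) and RAB24 at −0.64 ± 0.23 (adjusted p = 0.0435). The part of shared reads in the values of MXD3 was not tested.

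MYC did not pass with oxaliplatin in either line. It stood at 14039, 13210.4 and 12272 counts in treated HCT116 cells, below all untreated ones (log2FC −0.29 ± 0.18, adjusted p = 0.323), and at 9074, 11234 and 8273 in treated HCT116 oxpl-R cells, overlapping the untreated ones (log2FC −0.18 ± 0.18, adjusted p = 0.705). MAX was close to the threshold in HCT116 cells (log2FC 0.36 ± 0.15, adjusted p = 0.102). It passed there in DESeq2 (0.00231), with RLE normalization (0.0468), with filterByExpr (0.00954), with these groups fitted alone (0.0347) and without HCT116 control replicate 3 (0.0495). MGA, which moved with the shift over long transcripts in HCT116 cells, had log2FC −0.63 ± 0.31 there (adjusted p = 0.179) and −1.15 without replicate 3 of the treated samples (adjusted p = 0.00604). MXI1, with log2FC −0.28 ± 0.20 in HCT116 and 0.30 ± 0.20 in HCT116 oxpl-R cells, had a difference between the responses of 0.58 ± 0.29 (adjusted p = 0.327). For MAX, MYCL, MXD1 and MNT the responses differed by −0.24 to 0.37 on the log2 scale and did not pass.

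The following comparisons asked what induction of E1A, an oncoprotein that binds the retinoblastoma protein and the histone acetyltransferases p300 and CBP, did to the network. No member passed with E1A alone. By edgeR, 0 of 10 members passed in HCT116 (0.432% of all genes tested) and 0 in HCT116 oxpl-R cells (0.226%), with 2 and 1 members at an unadjusted p below 0.05 (6.25% and 5.0% of all genes). DESeq2, which called more of all genes than edgeR in both lines (totals in the last section), gave 0 in HCT116 and 1, MYC, in HCT116 oxpl-R cells (adjusted p = 0.0119). In HCT116 oxpl-R cells MYC went from 10124 to 11707 counts down to 5024 to 7512 without overlap (log2FC −0.76 ± 0.19, unadjusted p = 0.00027, adjusted p = 0.0864), as did 4.11% of all genes in that direction. MYC also passed with the replicate number as a block (0.0323) and, in an alternative added after seeing the data, without both libraries whose long transcripts stood apart (0.0359).

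In HCT116 cells MYC held 12778, 13209.8 and 11637 counts with E1A, below the untreated 15482 to 17129 (log2FC −0.36 ± 0.18, adjusted p = 0.813). When the 6 samples of this comparison were fitted alone, MYC (adjusted p = 0.00928) and MXD4 (0.0245) passed. That fit called 1559 genes, against 84 in the fit of all samples. MXD4 held 2034, 1927 and 1776 counts with E1A, above the untreated 1380 to 1493 (log2FC 0.41 ± 0.20), and MXD1 had 0.58 ± 0.26. The difference between the lines in the response of MYC to E1A was −0.40 ± 0.26 and did not pass, and 0 of 10 members passed there (0.0103% of all genes tested), with 1 at an unadjusted p below 0.05 (1.83% of all genes), MXD1 (−0.90 ± 0.36), and 0 by DESeq2.

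**Figure D4:**
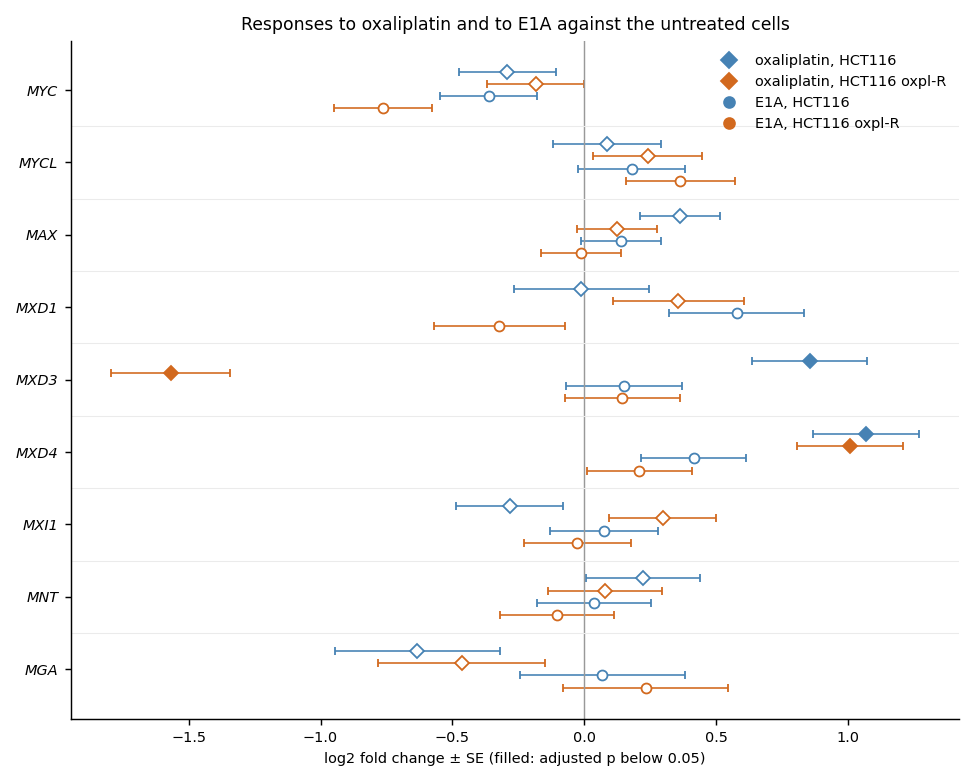
Log2 fold change (x axis, ± SE) of oxaliplatin (diamonds) and of E1A (circles) against the untreated cells for 9 members (y axis), in HCT116 (blue) and HCT116 oxpl-R cells (orange); filled symbols passed an adjusted p below 0.05. The filled symbols are those of MXD3, at 0.85 and −1.57, and of MXD4, at 1.07 and 1.01, and the lowest circle is that of MYC in HCT116 oxpl-R cells, at −0.76.

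E1A added ahead of oxaliplatin was set against oxaliplatin alone. In HCT116 oxpl-R cells MXD3 rose 2.23-fold, from 497, 404 and 396 counts to 773, 715 and 1406 (log2FC 1.16 ± 0.22, adjusted p = 0.00244), 1 of 10 members against 1.39% of all genes tested. Replicate 3 stood apart from the other treated samples and was the library whose long transcripts lay at −0.312. Its short transcripts, the class of MXD3, lay at 0.271. Without replicate 3, log2FC was 0.76 (adjusted p = 0.0842), and with the 6 samples fitted alone the adjusted p was 0.0618. The groups did not overlap, and the level with E1A + oxaliplatin still averaged less than the untreated 1283 ± 213 counts. In HCT116 cells MXD3 was at 1713, 1873 and 1521 counts, in the range of oxaliplatin alone (log2FC 0.04 ± 0.22). The difference between the lines, 1.12 ± 0.31, did not pass (adjusted p = 0.267).

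MYC under E1A + oxaliplatin was lower than under oxaliplatin in HCT116 oxpl-R cells without overlap (log2FC −0.65 ± 0.19, adjusted p = 0.0775). It passed in DESeq2 (0.0147), with the replicate block (0.0287) and without oxaliplatin replicate 3 (0.0434). In HCT116 cells it held 13089, 9242 and 9017 counts, overlapping oxaliplatin alone (log2FC −0.33 ± 0.18), and edgeR called 0 of 10 members (0.0874% of all genes tested), with 0 at an unadjusted p below 0.05 (3.1% of all genes) and 0 by DESeq2. In the tests of whether E1A acted differently with and without oxaliplatin, 0 of 10 members passed in HCT116 (0.0103% of all genes tested) and 0 in HCT116 oxpl-R cells (0.036%), with 0 and 1 at an unadjusted p below 0.05 (3.58% and 2.98% of all genes) and 0 by DESeq2 in both. The 1 member was MXD3, with 1.01 ± 0.31. The same test for the lines gave 0 of 10 members (0.134% of all genes tested), with 1 at an unadjusted p below 0.05 (3.89% of all genes), again MXD3, and 0 by DESeq2.

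The balance of activator and repressors was described per transcript length in each sample. MYC made up 57.86% to 58.84% of the summed CPM per kb of the 10 members in untreated HCT116 cells, and 44.95% to 47.22% in untreated HCT116 oxpl-R cells. It made up 49.19% ± 1.27 with E1A and 44.48% ± 0.551 with oxaliplatin in HCT116 cells. The ratio of MYC to the sum of MXD1, MXD3, MXD4, MXI1 and MNT was 2.381 ± 0.126 in untreated HCT116 cells, above all other groups. It was 1.238 ± 0.0664 with oxaliplatin in HCT116 cells, and 1.227 ± 0.0711 untreated and 1.196 ± 0.0645 with oxaliplatin in HCT116 oxpl-R cells, 3 groups whose samples overlapped. The ratio was lowest in HCT116 oxpl-R cells with E1A (0.6788 ± 0.112) and E1A + oxaliplatin (0.6494 ± 0.186). These are levels of RNA, and the ratio rests on 1 canonical transcript length per gene.

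Genes that MYC is known to raise were described next, from a list of 47, all tested, that mostly encode nucleolar proteins, enzymes of nucleotide synthesis and replication factors. The list was put together with results of these samples known, so its direction is no independent evidence. In untreated HCT116 oxpl-R cells 14 of 47 were lower and 0 higher, against 6.93% lower and 7.19% higher of all genes tested, and 38 lay below 0 (median log2FC −0.29, beside −0.03 for expressed genes). NCL, the major nucleolar protein nucleolin, fell from 48150 to 20676 normalized counts on average (log2FC −1.22 ± 0.21, adjusted p = 0.000111). POLR1B, a subunit of RNA polymerase I, had −1.03 ± 0.20, NOLC1, a nucleolar chaperone, −0.89 ± 0.20, and HK2, a hexokinase, −0.80 ± 0.28. With E1A the numbers were 14 lower and 0 higher (7.75% and 6.69% of all genes), and with E1A + oxaliplatin 19 lower and 1 higher (8.92% and 10.3%). With oxaliplatin 17 were lower and 7 higher (25.6% of all genes in both directions together), with MCM5, a helicase subunit of replication, at −2.32 ± 0.18 and NOP16, a ribosome assembly factor, at 1.51 ± 0.27.

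In response to oxaliplatin, the median log2FC of these genes was −0.22 in HCT116 and −0.21 in HCT116 oxpl-R cells (−0.09 and 0.01 for expressed genes). In HCT116 cells 14 of 47 passed as lower and 3 as higher (8.61% and 8.74% of all genes tested), and 28 lay below 0. HCT116 oxpl-R cells had 33 below 0, and 2 passed as lower and 0 as higher (3.01% and 3.1%). The 2 that passed there were MCM5 (log2FC −2.13 ± 0.17) and MCM4 (−2.08 ± 0.16), which are also known targets of E2F. MCM4 fell in HCT116 cells as well (−1.13 ± 0.16), beside NPM1, the nucleolar protein nucleophosmin (−1.66 ± 0.36). The responses of MCM5, MCM4 and DCTPP1, an enzyme that removes aberrant nucleotides, differed between the lines, 3 of 47 against 2.78% of all genes. Each was more negative in HCT116 oxpl-R cells, by −1.73 ± 0.24, −0.95 ± 0.22 and −0.93 ± 0.25 on the log2 scale. With E1A alone, 0 of 47 passed by edgeR in HCT116 (0.432% of all genes tested) and 0 in HCT116 oxpl-R cells (0.226%). In HCT116 oxpl-R cells 38 lay below 0 (median log2FC −0.14, beside −0.009 for expressed genes). In HCT116 cells 31 lay below 0 (−0.05, beside 0.03). With E1A ahead of oxaliplatin, MCM5 (1.68 ± 0.17) and MCM4 (1.39 ± 0.16) rose in HCT116 oxpl-R cells, the same group comparison in which MXD3 rose.

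Of 9 genes that MYC is known to repress through MIZ1 or other partners, 5 were higher and 0 lower in untreated HCT116 oxpl-R cells (7.19% and 6.93% of all genes tested), and 8 lay above 0 (median log2FC 0.53). This list too was put together with results of these samples known, so its direction is no independent evidence. With E1A 3 were higher and 1 lower (6.69% and 7.75% of all genes), with oxaliplatin 6 and 2 (25.6% in both directions together), and with E1A + oxaliplatin 4 and 2 (10.3% and 8.92%). CDKN1A, the p21 inhibitor of cyclin-dependent kinases and a main target of p53, averaged 4200 normalized counts in HCT116 and 16489 in HCT116 oxpl-R cells (log2FC 1.97 ± 0.18, adjusted p = 1.65e-09). CDKN2B, the p15 inhibitor, had 1.05 ± 0.24, and the stress genes GADD45B and GADD45A had 0.91 ± 0.21 and 0.53 ± 0.17. In response to oxaliplatin 5 of 9 rose in HCT116 (8.74% of all genes) and 3 of 9 in HCT116 oxpl-R cells (3.1%), with none lower, and CDKN1A reached 54674 and 120767 counts (log2FC 3.70 ± 0.20 and 2.87 ± 0.19). With E1A alone, 0 of 9 passed in HCT116 (0.432% of all genes) and 0 in HCT116 oxpl-R cells (0.226%). NDRG2 was lower in HCT116 oxpl-R cells with E1A (−0.55 ± 0.17) and with E1A + oxaliplatin (−0.90 ± 0.17), as was CDKN1C, the p57 inhibitor, in the latter (−0.76 ± 0.23, adjusted p = 0.0183).

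Cofactors of the network were mixed. Of 13 partners of MYC, untreated HCT116 oxpl-R cells had 3 at a lower and 2 at a higher level (14.1% of all genes tested in both directions together), and 7 lower and 3 higher with oxaliplatin (25.6%). The ATPase RUVBL2 was lower in untreated HCT116 oxpl-R cells (log2FC −0.68 ± 0.18), while its partner RUVBL1 (0.67 ± 0.20) and the acetyltransferase KAT2B (0.95 ± 0.28) were higher. Of 12 regulators of MYC stability, 2 were lower and 0 higher in untreated HCT116 oxpl-R cells (6.93% and 7.19% of all genes), the ubiquitin ligase HUWE1 (−0.63 ± 0.20) and the kinase PIM2 (−0.58 ± 0.18). AURKA, a mitotic kinase that shields MYC proteins from degradation, fell with oxaliplatin in both lines (−1.22 ± 0.22 and −1.98 ± 0.23), where 3 of 12 were higher and 2 lower in HCT116 (17.4% of all genes in both directions together) and 1 and 1 in HCT116 oxpl-R cells (6.11%).

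Of 9 partners of MGA in its Polycomb complex, 3 passed as lower and 0 as higher in the subline, in every condition (6.93% of all genes lower in untreated, 7.75% in E1A and 8.92% in E1A + oxaliplatin cells, and 25.6% in both directions together with oxaliplatin). They were HDAC2, L3MBTL2 and RING1, with −1.19 ± 0.25, −0.90 ± 0.19 and −0.53 ± 0.16 in untreated cells. In response to oxaliplatin 5 of 9 fell in HCT116 cells (8.61% of all genes), among them CBX3, a heterochromatin protein (−1.07 ± 0.31). In HCT116 oxpl-R cells 0 passed (6.11% of all genes in both directions together). Tested gene by gene, the responses differed between the lines for 0 of 9 (2.78% of all genes), and the list as a set was not tested. Of 7 corepressors of the MXD proteins, a list that also holds HDAC2, 1 was lower in untreated HCT116 oxpl-R cells (6.93% of all genes). With oxaliplatin 4 of 7 fell in HCT116 cells (8.61%), among them RBBP7, a histone chaperone (−0.91 ± 0.16), and 2 of 7 in HCT116 oxpl-R cells (3.01%), RBBP7 (−0.68 ± 0.16) and SAP30 (−1.06 ± 0.30). RBBP7 rose again with E1A ahead of oxaliplatin in HCT116 oxpl-R cells (0.62 ± 0.16), as MXD3 did. Of 3 genes of the related MLX branch, MLXIP, a glucose-sensing factor, was lower in HCT116 oxpl-R cells in all 4 conditions, from −0.91 to −0.70 on the log2 scale. The shares of all genes in these conditions are those given for the partners of MGA. None of the 3 passed in response to oxaliplatin (17.4% of all genes in HCT116 and 6.11% in HCT116 oxpl-R cells) or to E1A (0.432% and 0.226%).

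The surroundings of MYC on chromosome 8 were described from genes near it. The 24 expressed genes within 5 Mb had a median log2FC of −0.06 in untreated, −0.01 in E1A, 0.40 in oxaliplatin and 0.42 in E1A + oxaliplatin cells, where MYC was at −0.57, −0.98, −0.47 and −0.79. PVT1, a long noncoding RNA gene next to MYC, had −0.05 ± 0.15 between the untreated lines. It rose with oxaliplatin in HCT116 (0.60 ± 0.15, adjusted p = 0.00487) and HCT116 oxpl-R cells (0.52 ± 0.15, adjusted p = 0.0272), where MYC did not pass. CASC8, another noncoding neighbour, was higher in untreated HCT116 oxpl-R cells (1.65 ± 0.37, adjusted p = 0.00191). CASC19 was lower in HCT116 oxpl-R cells with oxaliplatin (−0.77 ± 0.24, adjusted p = 0.0154) and with E1A + oxaliplatin (−0.90 ± 0.24, adjusted p = 0.00722). With E1A alone it averaged 177.5 counts in HCT116 (untreated 289.9) and 136.9 in HCT116 oxpl-R cells (untreated 265.1), and did not pass. CASC11, which overlaps MYC on the opposite strand, had at most 9 counts per sample.

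The genes whose log2(CPM + 1) followed MYC most closely over the 24 samples, among 8854 genes with at least 100 counts on average, were RNF43 (Pearson r = 0.936), RFFL (0.935), NR2F2 (0.898), KLF4 (0.892) and KCTD2 (0.889). The 99th percentile of all coefficients was 0.805. The samples share their lines and conditions, so these values describe likeness and carry no test. RNF43, a ubiquitin ligase that removes Wnt receptors, averaged 4819 normalized counts in untreated HCT116 and 3053 in untreated HCT116 oxpl-R cells, and 2199 in the latter with E1A. KLF4, a transcription factor of differentiated epithelium, averaged 2853, 1811 and 1437 in the same groups.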

How the data were processed

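RNA of 24 samples was sequenced as described above. The authors trimmed the reads with Trimmomatic, quantified transcripts of GENCODE on GRCh38 in Salmon 1.6.0, correcting for GC content and sequence bias, and used tximport to reach gene level. The values deposited are estimated counts that were not normalized, and they were rounded to whole numbers here. The table used here ends at SETP6, and genes after it were not analysed here. The second deposited table, named as TPM, sums to 28004261 to 42613322 per sample, so it was read as estimated counts scaled for length and not as TPM, unlike planned, and served only as an alternative.

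Counts were fitted in R 4.3.3 with edgeR 4.0.16: TMM normalization, 1 mean per group over all 24 samples, quasi-likelihood tests for 15 comparisons, and adjustment after Benjamini and Hochberg over 19452 genes. The threshold was an adjusted p of 0.05, and SE is |log2FC| divided by the square root of F. Normalized counts are scaled by TMM to the mean library. Positions and canonical transcript lengths came from GENCODE release 44 on GRCh38, and promoters from RefSeq. Members and gene lists were chosen with earlier results of these data known. All members were named, up to 4 genes per list and comparison (largest |log2FC| among those that passed, at least 100 normalized counts on average), and the 5 genes most like MYC. EPCAM, RAB24, PRELID1, CASC11, PVT1 and the other genes named beyond this rule were chosen after their values were seen. On simulated data for the response of HCT116 cells to oxaliplatin (18742 genes, 200 changed), 47% of changes of 1 and 4% of changes of 0.5 on the log2 scale were recovered, with 6 false among 57 calls. Alternatives were RLE normalization, filterByExpr, the replicate number as a block, the compared groups alone, DESeq2 1.42.0, limma 3.58.1 on the second table (log2 scale, pseudocount 1 or 0.1), and each sample left out. Removing the trend over transcript length and leaving out both libraries whose long transcripts stood apart (HCT116 oxaliplatin replicate 3 and HCT116 oxpl-R E1A + oxaliplatin replicate 3) were added after seeing the data. Same-numbered samples were taken to deviate together where the correlations of all 3 replicates exceeded 0.1. From the data alone, that held in 1 of the 10 comparisons of 2 groups, that of the lines after oxaliplatin (0.141, 0.188 and 0.254). Tables and plots were made in Python 3.11.15 with pandas 2.3.3, numpy 2.4.6 and matplotlib 3.10.9.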

Additional observations from a re-analysis of the deposited data

Results flagged for a closer look

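The response of MXD3 to oxaliplatin differed between the lines by −2.42 on the log2 scale in the test of the interaction term (adjusted p = 1.47e-05, edgeR). MXD3 was higher in 3 of 3 treated HCT116 samples and lower in 3 of 3 treated HCT116 oxpl-R samples than in all untreated samples of the same line. Short transcripts, the class of MXD3, shifted between these samples as well, as given above. In none of the groups of 3 could a single sample be tested for standing apart.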

How the results depend on the processing

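Over 15 comparisons, 135 values of the 9 measured members were refitted in 2295 alternatives. Of these, 2231 kept their side of the threshold, 38 passed where they had not, 26 no longer passed, and 0 calls turned direction. Of 24 calls, 17 held in every alternative. The number of members that differed between the untreated lines was 4, and 2 with RLE normalization and 2 to 3 with 1 sample left out. It was higher with the compared groups fitted alone, where MXD3 and MXI1 passed as well and no call was lost. In E1A cells the number was 3, and 5 with the compared groups fitted alone or, in an alternative added after seeing the data, without both libraries whose long transcripts stood apart. For E1A in HCT116 cells it was 0, and 2 with the compared groups alone. For E1A in HCT116 oxpl-R cells it was 0, and 1 with DESeq2, with the replicate block and without both those libraries. For E1A ahead of oxaliplatin in HCT116 oxpl-R cells it was 1, and 2 with DESeq2, 2 with the replicate block, 0 with the compared groups alone and 0 to 2 with 1 sample left out. The fits of compared groups alone use fewer samples, and the other causes were not tested. The replicate block let MYC pass in the lines after oxaliplatin (log2FC −0.47, adjusted p = 0.0304) and with E1A in HCT116 oxpl-R cells without and with oxaliplatin, and it changed no other call. In the last 2 comparisons replicates 2 and 3 correlated with their own number (0.509 and 0.679 without, 0.238 and 0.28 with oxaliplatin). Replicate 1 stayed below 0.1 in both (0.026 and 0.022). For oxaliplatin in HCT116 oxpl-R cells all 3 treated samples correlated best with their own number, a hint from the data alone. Depth limits MYCN, with 0 to 4 counts per sample. The number of all genes that passed moved by more than 1.5 times as follows. It was 2747 for the untreated lines and 4737 with the compared groups alone. For oxaliplatin in HCT116 oxpl-R cells it was 1188, and 1793 with DESeq2 and 692 with the compared groups alone. For the difference between the lines in that response it was 540, and 979 with filterByExpr, 811 with the block, 1321 with DESeq2, 1480 without both libraries and 1015 to 1053 with limma. For E1A it was 84 in HCT116 cells (191 with DESeq2, 1559 with the compared groups alone), 44 in HCT116 oxpl-R cells (119, 13, and 69 with limma and a pseudocount of 1) and 2 for the difference (1 with filterByExpr or limma). For E1A ahead of oxaliplatin it was 17 in HCT116 cells (4 with the compared groups alone), 270 in HCT116 oxpl-R cells (546 with DESeq2, 107 with the compared groups alone, 441 to 443 with limma) and 26 for the difference (86, 2 and 56 to 60, and 11 without both libraries). For E1A with against without oxaliplatin it was 2 in HCT116 (8 with DESeq2, 0 with filterByExpr or the compared groups alone) and 7 in HCT116 oxpl-R cells (33 with DESeq2, 0 with the compared groups alone, 21 to 22 with limma).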
